A study of Homo sapiens with 6 samples.

Results

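The genes described here are 10 regulators and targets of the transcription factor NF-kB, chemokines left aside: TNFAIP3, NFKBIA, BIRC2, CYLD, REL, ICAM1, SDC4, GADD45B, IL32 and NLRP11. They were chosen from a list of names drawn up with expression values of these arrays in view, and all 10 were found in the table of 11584 measured genes, each through 1 probe set. Their differences between the cells given siRNA and the mock cells are therefore given as a description, without a test. The study asked how transcripts change when LIN28B, an RNA-binding protein known for holding back the maturing of let-7 microRNAs, is lost from HEK293 cells, a line derived from embryonic human kidney. Every group was grown from HEK293 T-REx Flp-In cells with a stably integrated FLAG/HA-LIN28B transgene that doxycycline can switch on. In the group called not induced, cells were mock transfected with the transgene off (2 arrays). In the induced group, cells were mock transfected with the transgene on (2 arrays). For induction the protocol names doxycycline at 250 ng per ml for 15 to 20 h. In the knockdown group the transgene was off and the cells were transfected with siRNA (2 arrays), with Lipofectamine RNAiMAX named as the reagent in the protocol. Whether the line is a single clone, the siRNA sequences and the time after transfection are not given in the sources used here. None of the groups used here received a control siRNA, so siRNA transfection and loss of LIN28B cannot be told apart in any comparison with the knockdown. The labels leave unsaid whether replicate arrays stem from separate cultures, so every p-value reflects array-to-array spread that may be technical.

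NF-kB is a family of dimeric transcription factors that are held in the cytoplasm by IkB proteins. Receptors for cytokines such as TNF activate the IKK kinase complex, IkB is degraded, and the dimers enter the nucleus and bind kappaB sites in DNA. Several of the genes they switch on shut the pathway off again, which gives a negative feedback. NFKBIA encodes the main IkB protein, TNFAIP3 encodes a ubiquitin-editing enzyme that dampens signalling from the receptors, and CYLD encodes a deubiquitinase that strips the ubiquitin chains on which IKK activation depends. BIRC2 encodes a ubiquitin ligase of TNF receptor complexes, and REL encodes c-Rel, an NF-kB subunit. ICAM1 is a leukocyte adhesion molecule, SDC4 a heparan sulphate proteoglycan of the cell surface, GADD45B a stress-induced signalling protein, IL32 a cytokine and NLRP11 a member of the NOD-like receptor family.

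RefSeq promoter windows on GRCh38.p14, which run from 250 bases before to 50 bases after an annotated start, were found for all 10 genes, some of which have several starts. They were searched on both strands for the kappaB consensus, a motif of 10 bases that opens with GGG and a purine, goes on with 2 free bases and 2 pyrimidines, and closes with CC. A match was present in 7 of the 10 genes and in 8 of their 15 windows, or 53.3%. Among the 9476 measured genes with a window 17.6% held a match. Of the 13954 windows of measured genes 13.5% did, and of all 35116 RefSeq windows 11.3%. The 10 genes were listed as regulators and targets of NF-kB, so their larger shares describe the choice and are no test. The 7 genes were TNFAIP3, NFKBIA, CYLD, REL, SDC4, GADD45B and IL32, while no match lay in the windows of BIRC2, ICAM1 or NLRP11. The sequences below are shown because these genes are known for answering to NF-kB, and capitals mark the bases of a match on either strand. The TNFAIP3 window (chr6:137867009-137867308, plus strand) holds 2 matches, with first bases 67 and 55 bases before the start. The NFKBIA window (chr14:35404700-35404999, minus strand) holds 1 match, 81 bases before the start. Both are printed 5′ to 3′ on the strand of the gene.
TNFAIP3: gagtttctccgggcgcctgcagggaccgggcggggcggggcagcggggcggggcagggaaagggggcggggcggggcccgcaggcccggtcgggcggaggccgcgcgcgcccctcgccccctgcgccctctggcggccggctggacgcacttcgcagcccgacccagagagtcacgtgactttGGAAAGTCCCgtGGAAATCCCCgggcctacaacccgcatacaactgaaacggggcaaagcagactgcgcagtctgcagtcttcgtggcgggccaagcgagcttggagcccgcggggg
NFKBIA: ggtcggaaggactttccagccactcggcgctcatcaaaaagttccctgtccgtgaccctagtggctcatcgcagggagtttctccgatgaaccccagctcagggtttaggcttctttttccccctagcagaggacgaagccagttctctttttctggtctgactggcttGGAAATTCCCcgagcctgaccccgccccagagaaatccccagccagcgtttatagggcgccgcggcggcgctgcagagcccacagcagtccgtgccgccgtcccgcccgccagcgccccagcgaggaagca

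For REL, SDC4, IL32 and CYLD the match is shown with 25 bases on each side. The stretches are chr2:60881502-60881562 (plus strand) for REL, chr20:45348487-45348546 (minus strand) for SDC4, chr16:3065279-3065339 (plus strand) for IL32 and chr16:50741872-50741931 (plus strand) for CYLD. In REL and IL32 matches on both strands overlap by all but 1 base, so that 11 bases stand in capitals. The bases before the start at which these matches begin number 47 in REL, 97 in SDC4, 99 in IL32 and 189 in CYLD. Another CYLD window holds matches on both strands of the same 10 bases, from the start itself, and GADD45B holds a match on both strands 163 bases before the start and one 15 bases before it. These are not printed. A match is a run of letters and does not show that a factor binds there. Sites that depart from this consensus were not searched for. The number of matches is therefore no count of kappaB sites, and a window without a match may still hold one.
REL: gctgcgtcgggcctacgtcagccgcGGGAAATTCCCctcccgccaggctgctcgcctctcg
SDC4: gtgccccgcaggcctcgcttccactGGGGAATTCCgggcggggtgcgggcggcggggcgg
IL32: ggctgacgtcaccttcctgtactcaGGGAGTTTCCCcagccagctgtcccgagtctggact
CYLD: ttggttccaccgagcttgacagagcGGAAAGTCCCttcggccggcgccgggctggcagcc

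All values below are the authors' log2 expression values per probe set, on which a difference of 1 is a doubling. Array medians lay between 7.13 and 7.18. LIN28B itself, the target of the siRNA, read 10.02 and 9.85 on the arrays not induced, 10.15 and 10.11 on the induced arrays and 7.51 and 7.53 on the knockdown arrays. Of 7 markers of HEK293 cells 5 were in the table (KRT8, KRT18, VIM, CDH2 and NEFL). In the knockdown against the cells not induced, limma called 1 of them higher and 2 lower at an adjusted p under 0.05. Of all genes 28.0% were called in that comparison. Of 8 leukocyte markers 1 was in the table (CD79A, 4.93 to 5.23 not induced, 5.07 to 5.17 induced and 5.375 to 5.382 in the knockdown), of 5 endothelial markers 0, and of 5 fibroblast markers 1 (COL1A1, 5.98 to 6.25, 5.96 to 6.10 and 6.04 to 6.28 in the same order). The table holds part of the array's probe sets, so a gene missing from it was not analysed here.

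**Figure D1:**
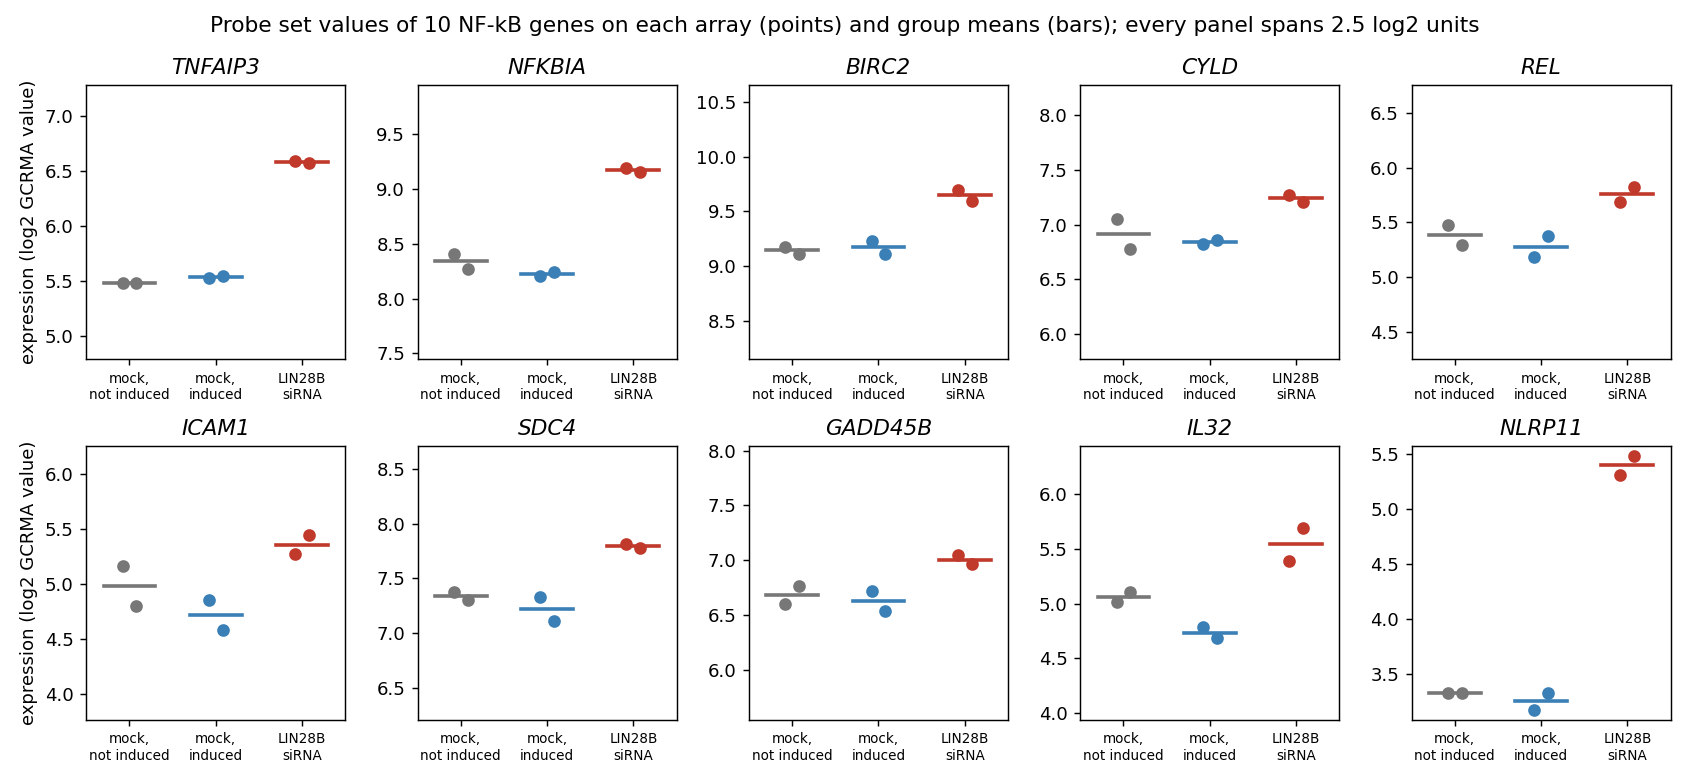
Expression of the 10 genes (log2 GCRMA value, vertical axis) on each of the 6 arrays, as points, with bars for the mean of the 2 arrays of a group. Every panel spans the same 2.5 log2 units, and in all 10 panels both knockdown points lie above the 4 mock points.

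Both knockdown arrays read higher than all 4 mock arrays for all 10 genes, an order that 27.1% of the 11584 measured genes shared. The distance from the lower knockdown array to the highest mock array ran from 0.11 for ICAM1 to 1.99 for NLRP11. For CYLD, ICAM1 and IL32 that distance was smaller than the widest difference between 2 arrays of one group. For the rest of the 10 it was larger. How many of all genes do so was not counted, and the 10 were chosen with these values in view. On bulk RNA a rise in every cell and a rise in some of the cells cannot be told apart.

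TNFAIP3, the first of the inhibitor genes, was higher in the knockdown by far more than its replicates differed. Its probe set read 5.48 and 5.48 on the arrays not induced, 5.53 and 5.55 on the induced arrays and 6.60 and 6.57 on the knockdown arrays. Replicates lay within 0.02 of each other in every group, and the knockdown arrays stood apart from the mock arrays by 1.03. The log2 fold change was 1.10 (SE 0.13) against the cells not induced, a 2.15-fold difference, and 1.05 against the induced cells.

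NFKBIA, the gene of the main IkB protein, was likewise higher in the knockdown. It gave 8.41 and 8.27 without induction, 8.21 and 8.24 with induction and 9.19 and 9.15 in the knockdown. The knockdown arrays differed by 0.04 from each other and lay at least 0.74 above any mock array. The log2 fold change was 0.83 (SE 0.08) against the cells not induced and 0.94 (SE 0.08) against the induced cells.

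CYLD, the deubiquitinase gene, had a smaller difference and a wide spread in the cells not induced. Values of 7.05 and 6.78 without induction differed by 0.27, more than the 0.16 between the highest mock and the lowest knockdown array. The induced arrays read 6.82 and 6.86 and the knockdown arrays 7.27 and 7.21. The log2 fold change of 0.32 (SE 0.12) against the cells not induced became 0.46 when replicate 1 of that group was left out and 0.19 when replicate 2 was.

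Of the 2 genes that act in signalling itself, BIRC2 had the narrower spread. This ubiquitin ligase gene read 9.18 and 9.11 without induction, 9.23 and 9.11 with induction and 9.69 and 9.60 in the knockdown. The mock groups overlapped each other and the knockdown lay above both, with a log2 fold change of 0.50 (SE 0.08) against the cells not induced. REL, the subunit gene, read 5.47 and 5.30, then 5.18 and 5.38, then 5.69 and 5.83 in the same order of groups. Its log2 fold change was 0.37 (SE 0.16), and the gap of 0.21 to the mock arrays was little more than the 0.20 between the 2 induced arrays.

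The levels of ICAM1, IL32 and NLRP11 lay near or under 5 in mock cells. ICAM1 read 5.16 and 4.80 without induction, 4.85 and 4.58 with induction and 5.27 and 5.44 in the knockdown. The lower knockdown array was only 0.11 above the higher array not induced, and the log2 fold change was 0.38 (SE 0.20). Leaving out replicate 1 of the cells not induced gave 0.56, and leaving out replicate 2 gave 0.19. IL32 read 5.01 and 5.11, then 4.78 and 4.69, then 5.39 and 5.69. Its knockdown arrays differed by 0.30 from each other, and the log2 fold change was 0.48 (SE 0.18) against the cells not induced and 0.81 against the induced cells.

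NLRP11 had the largest listed difference of the 10 genes. Its probe set gave 3.32 and 3.32 without induction, 3.17 and 3.32 with induction and 5.31 and 5.49 in the knockdown. The listed values differed by 2.08 on the log2 scale (SE 0.22) from the cells not induced. The mock values lay near the lowest of the table, 2.59, and whether they stand above background is not known, so no fold is given. All but 1 of the 13008 probe sets in the table lay above 5 on at least 2 arrays. NLRP11 did so on the knockdown arrays alone, and ICAM1, with 1 mock array above 5, also passed that level only through the knockdown arrays. Of other NOD-like receptor genes in the table, NLRP12, NLRX1, NOD1 and NAIP had log2 fold changes of 0.29, -0.12, -0.08 and 0.24, none passing the limma test, here and below an adjusted p under 0.05 by Benjamini-Hochberg over all genes (adjusted p = 0.3, 0.557, 0.732 and 0.306).

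SDC4 and GADD45B had smaller differences. SDC4 gave 7.38 and 7.30 without induction, 7.33 and 7.11 with induction and 7.81 and 7.78 in the knockdown, a log2 fold change of 0.45 (SE 0.11) against the cells not induced. GADD45B gave 6.60 and 6.77, then 6.72 and 6.54, then 7.05 and 6.96, a log2 fold change of 0.32 (SE 0.12). Of the other syndecan genes, SDC3 fell by 0.73 in the knockdown (limma adjusted p = 0.0166), SDC1 had 0.31 and SDC2 -0.02, neither passing. The SDC3 call was lost without replicate 2 of the cells not induced (-0.56) and without replicate 1 of the knockdown (-0.62). GADD45A and GADD45G had log2 fold changes of 0.19 and 0.01 (limma adjusted p = 0.137 and 0.991).

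**Figure D2:**
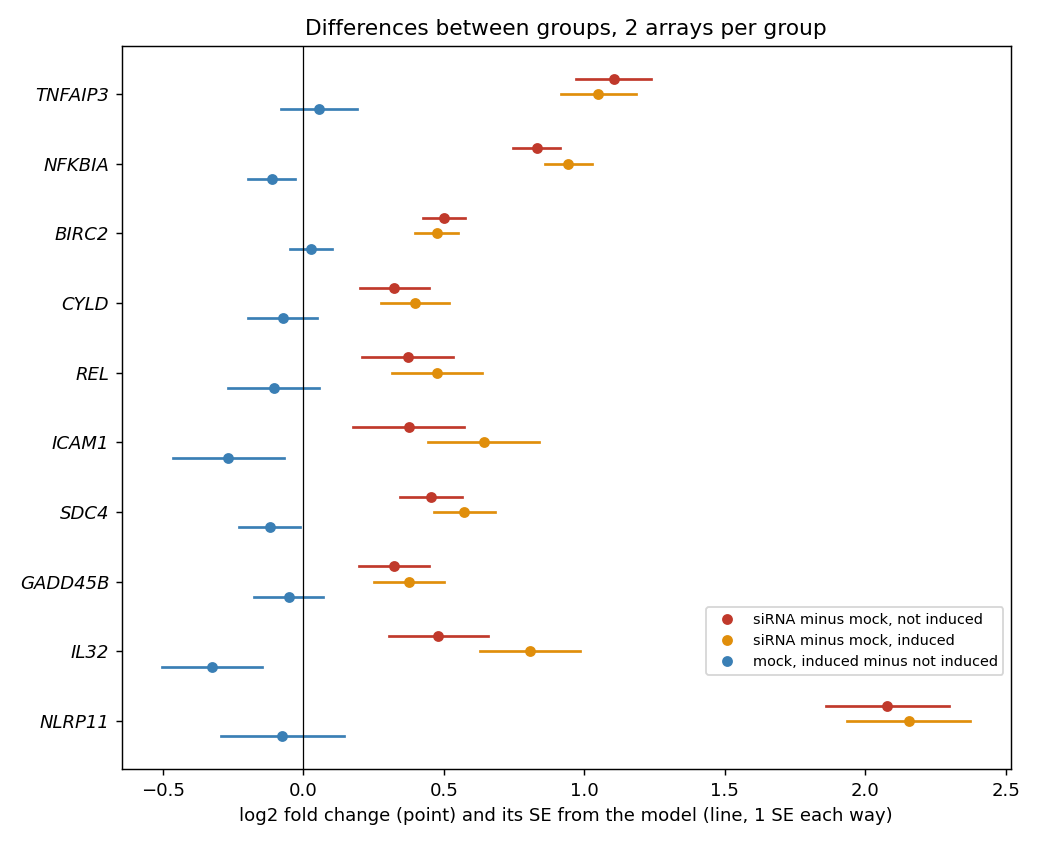
Log2 fold changes of the 10 genes (horizontal axis) for the knockdown against each mock group and for induced against not induced cells, as points with 1 SE of the limma model each way as lines. The knockdown points run from 0.32 to 2.08 against the cells not induced, and the largest difference of induced from not induced cells is -0.33, in IL32.

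Over the 10 genes the median log2 fold change in the knockdown was 0.47 against the cells not induced and 0.61 against the induced cells, where the medians of all genes were 0.01 in both. Both comparisons use the same knockdown arrays. The genes were picked with these differences known, so the medians describe the choice.

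**Figure D3:**
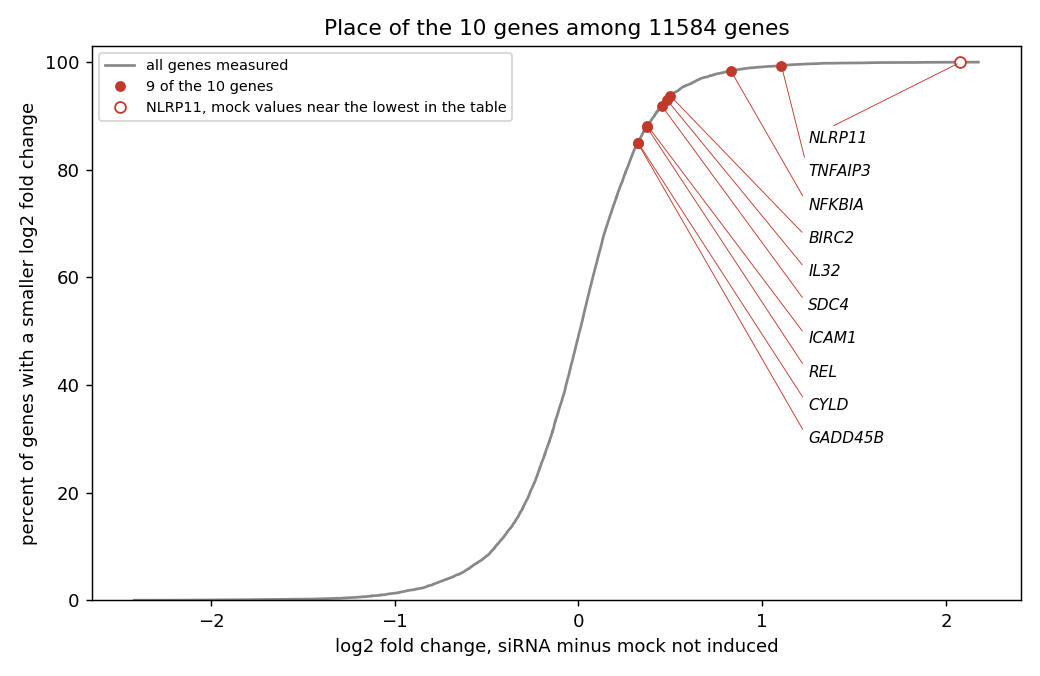
Percent of the 11584 measured genes with a smaller log2 fold change (vertical axis) against the log2 fold change of the knockdown over the cells not induced (horizontal axis), as a grey line, with the 10 genes as points. The filled points run from 84.9% for GADD45B to 99.4% for TNFAIP3, and the open point is NLRP11, whose mock values lay near the lowest of the table.

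The 10 genes took different places among all genes, and the SEs given above leave the order of neighbouring genes unsettled. TNFAIP3 had the 74th largest log2 fold change of 11584 genes and NFKBIA stood at rank 194. No rank is given for NLRP11, given its low mock values. BIRC2, IL32 and SDC4 followed at ranks 731, 808 and 942. ICAM1, REL, CYLD and GADD45B lay between ranks 1367 and 1748, with 84.9% to 88.2% of all genes below them. None of the 10 had a log2 fold change between that of BIRC2 (0.50) and that of NFKBIA (0.83).

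The genes whose values followed TNFAIP3 most closely over the 6 arrays were NHLRC3, GINM1 and KIN, with Pearson r of 0.9997, 0.9996 and 0.9994. For NFKBIA they were SPPL2A, EMC3 and TMEM87A, with r of 0.9993, 0.9991 and 0.9989. These correlations rest on 6 arrays in 3 groups and are set by the gap between knockdown and mock. An r above 0.95 was reached by 811 of 11574 genes for TNFAIP3 and by 825 for NFKBIA.

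Induction of the tagged LIN28B was tested in the mock cells. The LIN28B probe set itself showed little of it, with a log2 fold change of 0.19 (95% interval 0.02 to 0.37, unadjusted p = 0.0349 and adjusted p = 0.999 by limma), and whether that probe set reads the transgene was not tested. The genes were chosen with the values of all arrays in view, and this comparison shares the arrays not induced with the first one. None of the 10 genes was called by limma, as was none of the 11584 genes (0%), and 0 of the 10 had an unadjusted p under 0.05, against 2.97% of all genes. Of the 10, 8 were lower and 2 higher with induction, with a median log2 fold change of -0.09. Of all genes 48% were higher with induction, and of the 104 other NF-kB pathway genes described below 36.5% were. The groups overlapped for 7 of the 10, while both induced arrays lay above both others for TNFAIP3 and below them for NFKBIA and IL32. Over all genes 13.5% were so placed above and 14.0% below. The largest difference was in IL32, at -0.33 (95% interval -0.72 to 0.07, unadjusted p = 0.0968 and adjusted p = 0.999 by limma), from 5.06 ± 0.07 to 4.74 ± 0.07 (SD, n = 2 each). ICAM1 had -0.27 (-0.71 to 0.17). The narrowest intervals were those of BIRC2, from -0.14 to 0.19, and NFKBIA, from -0.30 to 0.07. The intervals of all 10 genes ended below the knockdown difference of the same gene against the cells not induced. Those differences were known when the genes were chosen, so this is a description and no test. For TNFAIP3 the interval ran from -0.24 to 0.35.

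**Figure D4:**
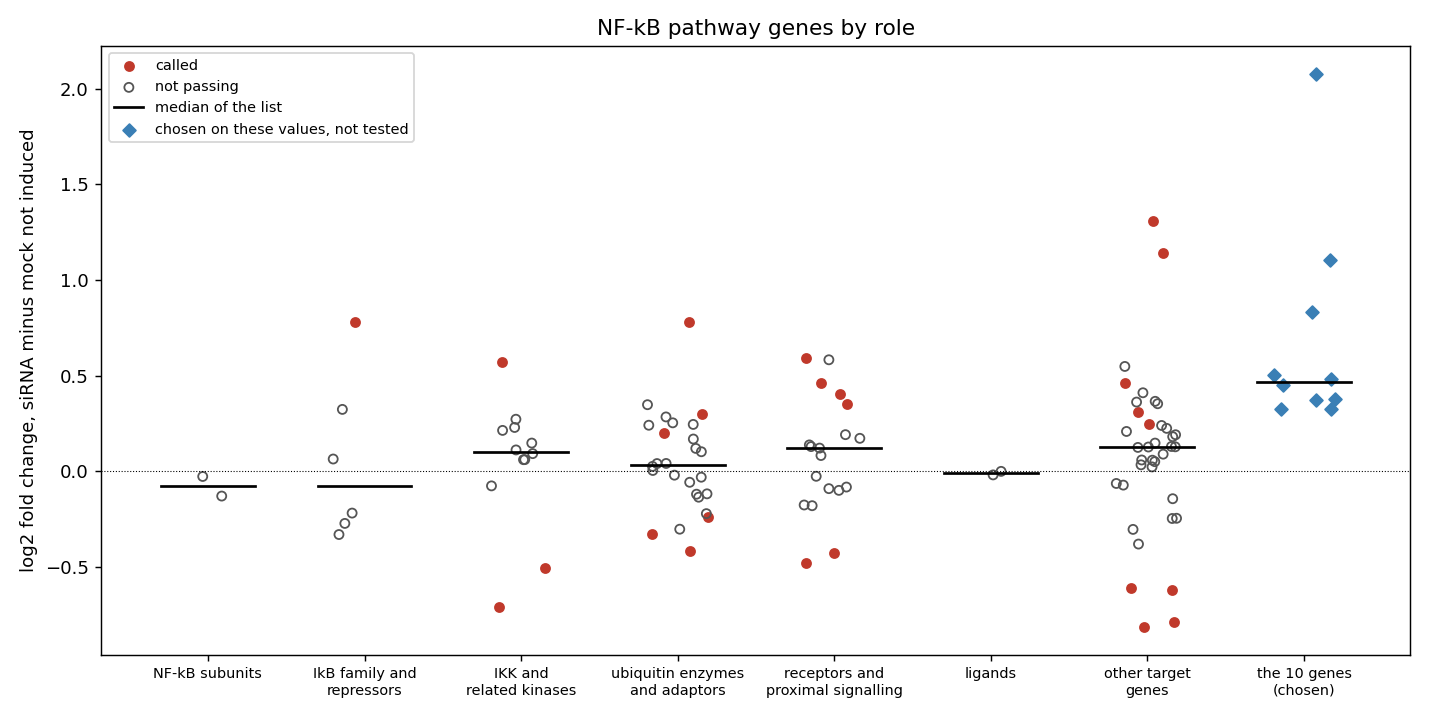
Log2 fold changes of the knockdown over the cells not induced (vertical axis) for other NF-kB pathway genes grouped by role and for the 10 chosen genes. Filled circles were called by limma, open circles did not pass, diamonds are the chosen genes, which were not tested, and bars mark the median of each list, which lies at 0.47 for the chosen genes and between -0.08 and 0.13 for the other lists.

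Other genes of the pathway were taken from lists by role, drawn up with earlier results of these data known. Of 166 such genes 104 were in the table, and in the knockdown against the cells not induced 14 rose, 11 fell and 79 did not pass. This is 24.0% called, near the 28.0% of all genes (13.5% higher and 14.5% lower), and the median log2 fold change was 0.07. Against the induced cells 15 rose and 7 fell, or 21.2% where 28.4% of all genes were called (14.0% higher and 14.5% lower), and with induction limma called 0, with an unadjusted p under 0.05 for 5 of them. The count depends on the knockdown arrays, with 6 higher and 5 lower without replicate 1 and 9 higher and 5 lower without replicate 2.

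Neither of the other subunit genes in the table passed. NFKB1 and RELA had log2 fold changes of -0.03 and -0.13 (limma adjusted p = 0.887 and 0.568). Of 6 genes for IkB family proteins and nuclear repressors 1 rose and 5 did not pass. The 1 that rose was COMMD1 (0.78, SE 0.07), whose product promotes degradation of RELA and is no IkB protein. NFKBIB, NFKBIE, NFKBIZ and NFKBID had 0.06, -0.22, 0.32 and -0.33.

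Among 12 genes of the IKK complex and related kinases 1 rose and 2 fell. The core IKK genes CHUK, IKBKB and IKBKG had 0.23, 0.06 and 0.11, none passing. TANK, an adaptor that binds TRAF proteins and the kinase TBK1, fell by 0.71, and MAP3K7, the kinase known as TAK1 that activates IKK, fell by 0.51. NEK7, a kinase known for its part in the NLRP3 inflammasome, rose by 0.57. TANK and NEK7 lost the call without replicate 1 of the knockdown (-0.63 and 0.51), and MAP3K7 lost it without either knockdown array or replicate 1 of the cells not induced (-0.36). Against the induced cells TANK had -0.31 and did not pass.

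Of 26 genes for ubiquitin enzymes and adaptors 3 rose and 3 fell. RNF11, a subunit of the TNFAIP3 enzyme complex, rose by 0.78 (SE 0.09, limma adjusted p = 0.000374), while TAX1BP1 and ITCH, other parts of that complex, had -0.06 and 0.04. RIPK2, a kinase of NOD receptor signalling, fell by 0.42, RBCK1, a subunit of the linear ubiquitin ligase, fell by 0.33, and XIAP, a relative of BIRC2, rose by 0.30. These 3 calls were lost without either knockdown array. RIPK2 also lost it without replicate 1 of the cells not induced, RBCK1 and XIAP without replicate 2 of those cells, without either induced array or with only the 4 arrays compared, and RBCK1 without the intensity trend. The probe sets of XIAP and MAP3K7, ending in _x_at, may also read related transcripts. BIRC5 and BIRC6, other genes of that family, had 0.01 and -0.01.

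Of 19 genes for receptors and proximal signalling 4 rose and 2 fell. IRAK2, a kinase of interleukin and Toll-like receptor signalling, rose by 0.59 and the interleukin 17 receptor gene IL17RA by 0.46, while IRAK1, a relative of IRAK2, fell by 0.43 and the antiviral adaptor gene MAVS by 0.48. IRAK2, IL17RA and MAVS lost the call without either knockdown array and IRAK1 without replicate 2 of the knockdown. MAVS also lost it without either induced array, with only the 4 arrays compared and without the intensity trend of the model. Without replicate 2 of the cells not induced IRAK2 had 0.43 and MAVS -0.26, and without replicate 1 IL17RA had 0.32, none of them called. Against the induced cells MAVS had -0.42 and did not pass. The TNF receptor gene TNFRSF1A had 0.17 and MYD88 0.12 against the cells not induced. Of 13 ligand genes only LTB and TNFSF9 were in the table, at -0.02 and 0.00.

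Of 37 further target genes 5 rose, 4 fell and 28 did not pass, with a median of 0.13. IER3, an immediate early gene of stress and survival signalling, rose by 1.31 (SE 0.09), and PSMB9, an immunoproteasome subunit gene that interferon also induces, rose by 1.14 (SE 0.17). PSMB9 had 0.62 in the induced over the cells not induced, which did not pass. The adhesion receptor gene CD44 and the transcription factor gene MYB fell by 0.79 and 0.81. IRF1, JUNB and BCL2L1 had 0.18, 0.06 and 0.13, none passing.

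None of the 3 relatives of ICAM1 in the table was called higher. ICAM3 fell by 0.49 (limma adjusted p = 0.0476), a call lost without any single array other than replicate 2 of the cells not induced, down to -0.29 without replicate 1 of those cells. Median centring and quantile normalization (-0.46 under each) also ended the call of ICAM3, as did dropping the intensity trend or the induced arrays. Against the induced cells ICAM3 had -0.47 and did not pass. ICAM4 and ICAM5 had 0.18 and -0.08 against the cells not induced. Chemokine genes are the other well-known class of NF-kB targets, and of 13 listed 8 were in the table. Limma called 6 of these higher, from 0.70 for CXCL3 to 2.16 for CXCL1, where 13.5% of all genes were called higher. The chemokine list was also drawn up with earlier results of these data known. A gene low in mock cells can lie above 5 on 2 arrays through the knockdown arrays alone, as NLRP11 did. How many of the 8 chemokine genes did so was not counted, so their calls are a description and no test. CXCL3 lost its call without either knockdown array or without replicate 2 of the cells not induced (0.62).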

How the data were processed

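Total RNA (2 µg per array) was labelled with biotin and hybridised to the Human Genome U133 Plus 2.0 Array, per the labels' protocols. The deposited log2 values per probe set were made by the authors with affy and GCRMA, per the submitters' processing notes; versions are not given in the sources used here. No log base is stated there, and base 2, which GCRMA gives, was assumed. Of 13008 probe sets, 11719 had 1 gene symbol in the platform annotation and 11584 genes resulted, with symbols updated through RefSeq (GRCh38.p14, 11578 matched). The probe set of highest mean was used where a gene had several. A filter (above 4 on at least 2 arrays) removed 0 genes. Of the 10 genes, 5 were read by probe sets ending in _s_at, which can read related transcripts.

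Genes were fitted with limma 3.58.1 in R 4.3.3 (lmFit, eBayes with intensity trend) in 1 model of 3 groups, with two-sided tests and Benjamini-Hochberg adjustment over all genes; the threshold was an adjusted p under 0.05. The script was tested on simulated data. The number of arrays limits the precision. The 10 genes and the lists by role were chosen with earlier results of these data known. From each list up to 4 called genes of largest change were named, or the 2 of smallest p where none was called, and relatives and list members given as further values were named after their values were seen. Alternatives covered pairing, scaling, the prior, arrays fitted, probe set choice, filters and leaving out each array.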

Additional observations from a re-analysis of the deposited data

How the results depend on the processing

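The 10 genes kept the sign of their difference from both mock groups under every alternative in which they were measured. They were picked with these differences known, and both knockdown arrays lay above all 4 mock arrays for each. Leaving out an array could therefore not change a sign, so the kept signs are no test. Whether replicate numbers shared by the groups pair the arrays is not given by the labels and cannot be settled here. Deviations of same-numbered arrays correlated at 0.18 between the mock groups. Between the knockdown and the cells not induced and induced they correlated at -0.06 and 0.02. With the replicate number as a block 1649 genes were called higher and 1773 lower in the knockdown against the cells not induced, against 1563 and 1679 without it. With arrays centred on their medians 1835 genes were higher and 1524 lower.

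Without probe sets ending in _x_at or _s_at, which removes 5 of the 10 genes, other pathway genes called lower numbered 7 against the cells not induced and 3 against the induced cells. Leaving out 1 array at a time gave 815 to 1640 genes higher and 849 to 1562 lower in the knockdown against the cells not induced, and 830 to 1970 higher and 872 to 1981 lower against the induced cells. Other pathway genes ranged from 6 to 14 higher and 5 to 10 lower, and from 4 to 16 higher and 2 to 9 lower. With induction 0 to 1 gene was called lower and 0 higher, and 0 of the 10 in either direction. The lone array left in a group is assumed to vary like the others. TNFAIP3, REL, ICAM1, IL32 and NLRP11 had mean values under 6 in the cells not induced, where signal stands least above background.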

Other observations

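Calls in the knockdown were counted by kappaB match over the 9476 measured genes with a promoter window, and the difference between the shares was not tested. Of 1670 measured genes with a match 218, or 13.1%, were called higher and 15.7% lower against the cells not induced, with a median log2 fold change of 0.00. Of 7806 genes with a window and no match 14.0% were called higher and 14.5% lower, with a median of 0.01. With the 10 genes and the chemokines left out, 12.7% of 1658 genes with a match were called higher. Matches were present in 5 of 6 chemokine genes with a window and in 11 of 29 further target genes, or 37.9%, against 3 of 22 genes for ubiquitin enzymes and adaptors, or 13.6%. These shares are descriptions of the windows, which cover 300 bases and no enhancers.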
